A study of Mesocricetus auratus with 10 samples.

Results

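ABCA1, ABCG1, ABCG4, NR1H3 and SCARB1 are 5 genes of cellular cholesterol efflux: 3 ATP-driven sterol exporters, the nuclear receptor LXR alpha and the HDL receptor SR-BI. They were taken as every non-control probe whose gene name in the array files is one of these 5 symbols, which gave 54 of 116452 probes. The measure was the log2 ratio of HFD over STD pool in each animal. Livers came from 10 male golden hamsters (Mesocricetus auratus) given a high fat diet (HFD), and a single pool of RNA from 10 hamsters given a standard diet (STD) served as the control. On 20 custom Agilent arrays of 2 colours, each HFD animal met the pool in both dye orientations. The labels give no genotype, strain, age or length of feeding, and because the STD animals were pooled, the spread among them is not in any value here.

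Cells cannot break down the sterol ring, so surplus cholesterol leaves by transporters. ABCA1 loads phospholipid and cholesterol onto lipid-poor apolipoprotein A-I to form nascent HDL, ABCG1 passes sterol to mature HDL and is abundant in macrophages, and ABCG4 is a close relative of ABCG1 known mainly from brain. SCARB1 encodes SR-BI, through which hepatocytes take up cholesteryl ester from HDL and which lets free cholesterol move both ways. NR1H3 encodes LXR alpha, an oxysterol-activated receptor that binds DNA with RXR and drives transcription of ABCA1, ABCG1 and many other genes of sterol disposal and lipogenesis.

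The 54 probes do not all carry the letters of the messenger RNA. Labelled cRNA of this kind of kit is complementary to mRNA, so a probe with the mRNA's own letters pairs with it. The ABCA1 probes fall under 3 sequence identifiers in the files, and 2 of these run in opposite directions, as 5 pairs of mirrored probes show. In each pair below the capitals mark the bases of 1 probe that are the reverse complement of the capitals in the other. The first of each pair has the mRNA's letters and the second its complement, and the pairs are shown because the ratios turn on this strand.
CUST_105284, mRNA letters: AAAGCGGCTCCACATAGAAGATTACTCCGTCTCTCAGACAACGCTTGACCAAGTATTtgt
CUST_104666, complement: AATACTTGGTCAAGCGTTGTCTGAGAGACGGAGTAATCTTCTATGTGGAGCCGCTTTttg
CUST_105282, mRNA letters: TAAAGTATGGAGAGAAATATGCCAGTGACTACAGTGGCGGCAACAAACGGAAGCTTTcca
CUST_104669, complement: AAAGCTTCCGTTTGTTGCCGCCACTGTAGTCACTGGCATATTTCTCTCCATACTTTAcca
CUST_105283, mRNA letters: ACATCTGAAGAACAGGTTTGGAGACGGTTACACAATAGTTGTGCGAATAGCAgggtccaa
CUST_104667, complement: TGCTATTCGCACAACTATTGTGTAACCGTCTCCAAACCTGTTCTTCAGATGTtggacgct
CUST_105281, mRNA letters: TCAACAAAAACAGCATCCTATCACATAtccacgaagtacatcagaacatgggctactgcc
CUST_104670, complement: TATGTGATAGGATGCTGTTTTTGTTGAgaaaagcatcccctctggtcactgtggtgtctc
CUST_105280, mRNA letters: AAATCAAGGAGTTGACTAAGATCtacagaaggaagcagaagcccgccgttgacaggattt
CUST_104671, complement: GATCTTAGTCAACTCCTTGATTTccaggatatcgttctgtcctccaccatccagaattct

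Which strand is the mRNA's was read from short conserved peptide motifs in the translated probes, and all probes under 1 identifier were taken to run the same way. The next probes show where such a motif lies, with its codons in capitals, on the printed strand for ABCA1 CUST_105282, ABCG4 and NR1H3 and on the complement for ABCA1 CUST_104685 and ABCG1 CUST_97832.
ABCA1 CUST_105282, ABC signature motif: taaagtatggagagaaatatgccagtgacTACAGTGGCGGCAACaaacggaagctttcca
ABCA1 CUST_104685, Walker A motif in the complement: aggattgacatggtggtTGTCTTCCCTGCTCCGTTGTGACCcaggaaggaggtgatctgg
ABCG1 CUST_97832, H-loop motif in the complement: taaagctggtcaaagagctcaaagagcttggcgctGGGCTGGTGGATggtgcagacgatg
ABCG4 CUST_69993, Walker B motif: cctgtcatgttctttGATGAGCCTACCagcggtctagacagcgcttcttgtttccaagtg
NR1H3 CUST_67688, P box of the DNA-binding domain: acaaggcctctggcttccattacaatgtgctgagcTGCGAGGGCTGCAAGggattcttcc
Among all 116452 probes the Walker A motif occurred in 0.0301% as printed and in 0.0215% of complements, the ABC signature in 0.0283% and 0.0275%, Walker B in 0.012% of each, the H-loop in 0.0198% and 0.018%, and the P box in 0.00687% and 0.00258%. A match is a description of these letters only. The second identifier of ABCG1, with 4 probes, was placed on the mRNA strand from open reading frames alone, since CUST_82794 had 2 open frames as printed and 0 in its complement. The other 3 probes did not decide it: CUST_82785 had 1 open frame as printed and 2 in the complement, CUST_82789 had 2 and 1, and CUST_82791 had 2 and 2. That is weaker ground than a motif, because each probe holds only 60 bases. Its brightest probe was the following.
ABCG1 CUST_82791: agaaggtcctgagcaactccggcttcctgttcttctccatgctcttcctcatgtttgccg
Motifs and open frames settled no strand for the 7 probes of SCARB1, for 2 of the 27 of ABCA1, for 2 of the 7 of NR1H3 and for 1 of the 2 of ABCG4. The translated probes were not compared with whole protein sequences, so unsettled here means by these rules only.

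Of the 54 probes 53 could be tested, since 1 ABCA1 probe of the complement strand had no value on 1 array. By limma's moderated test over all probes, 23 of the 53 were higher in HFD livers than in the STD pool, 8 were lower and 22 were not called (adjusted p under 0.05). Of the 23, CUST_82785 and CUST_97828 of ABCG1 and CUST_69993 of ABCG4 passed the filter on dim probes through HFD RNA only. Over all 103879 probes tested, 26.7% were called higher and 28.4% lower, 55.1% in all. A call by itself therefore sets no gene apart. The median ratio of the 53 probes was 0.12, against -0.00 over all probes tested, where the median absolute ratio was 0.10. The plot of all 53 probes shows that the calls follow gene and strand.

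**Figure D1:**
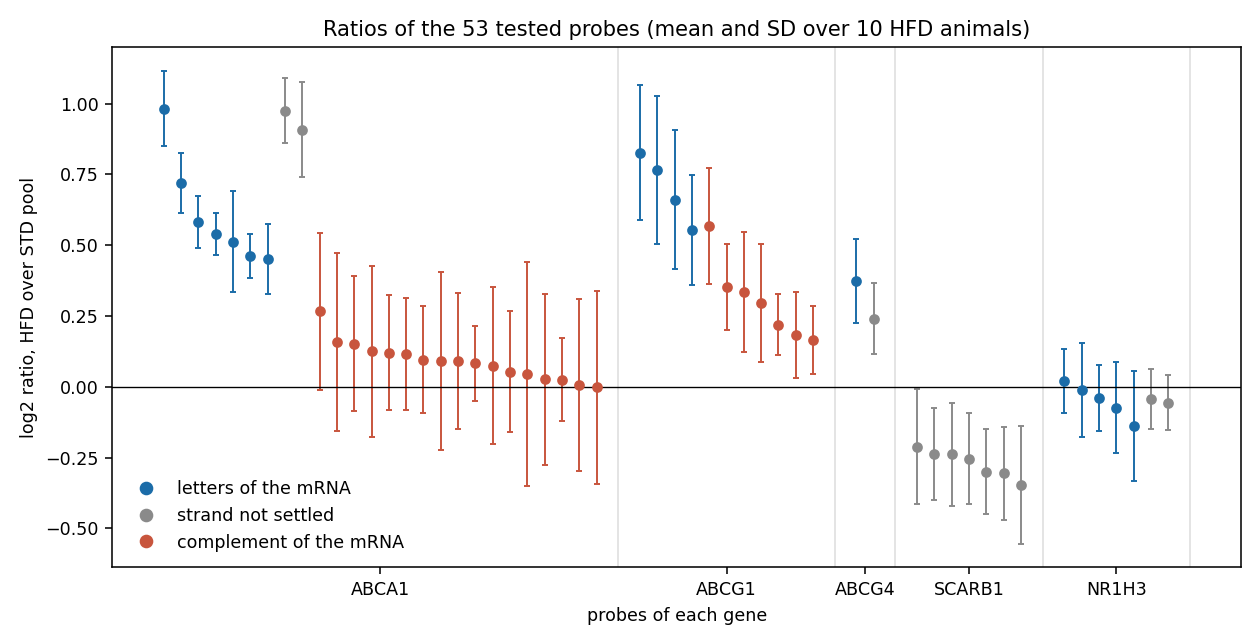
Log2 ratio of HFD over STD pool for the 53 tested probes of the 5 genes, 1 point per probe with the mean and SD over 10 HFD animals, coloured by strand. All 7 ABCA1 probes with the letters of the mRNA lie between 0.45 and 0.98, while the 17 of the complement lie between -0.00 and 0.27; all 7 SCARB1 probes lie below 0.

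A set of arrays stands apart and touches several of these values. The 6 arrays with HFD in Cy3 of animals 5 to 10 correlated with each other across probes at 0.826 to 0.909, whereas the other 14 did so at 0.0996 to 0.741. Between the 6 and the other 14 it was 0.323 to 0.763. With the mean of all other arrays, the 6 correlated at 0.789 to 0.839 and the 14 at 0.525 to 0.836. The 6 are therefore apart by their likeness to each other, and neither set is taken as the better measure. The set was named after the ratios were seen, so these correlations are a description. All 6 hold HFD in Cy3 while the other 14 mix both orientations, and the part of the dye in the correlations was not tested. There were 7 slides and 3 scan sessions, and all arrays hold the same comparison. The share of probes well above background ranged over arrays from 77.2% to 97.7% in HFD RNA and from 76.7% to 96.7% in the pool, and 0 spots were saturated. For each gene, values with and without the 6 arrays are given below.

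ABCA1 was higher in every HFD liver by each of its 7 probes with the mRNA's letters. Averaged over these probes, the log2 ratio was 0.50 in the lowest animal, 0.59 at the median and 0.77 in the highest. All 10 animals lay above 0 and close together. The mean was 0.61 ± 0.09 (SD, n = 10), a 1.52-fold higher level (limma, adjusted p = 5.73e-09), and 3.51% of the 13827 named genes tested had a larger absolute ratio. ABCA1 is the exporter that starts HDL formation, and the liver is a main source of that HDL.

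The brightest ABCA1 probe, CUST_105279, read 699.8 to 1054 intensity units in HFD RNA with a median of 891, against 564 to 675 with a median of 603 in the pool measured beside it. Pool ranges here and below are repeat measures of 1 pool and hold no spread between control animals. The log2 ratio of CUST_105279 was 0.26 in the lowest animal, 0.55 at the median and 0.78 in the highest. Its mean was 0.51 ± 0.18 (SD, n = 10, limma, adjusted p = 2.47e-06). The probe with the largest ratio on this strand, CUST_105284, averaged 0.98 ± 0.13 and ranged over animals from 0.84 to 1.22. Its intensity was 776 to 1159 in HFD RNA and 427 to 523 in the pool. The 2 ABCA1 probes of unsettled strand gave similar values, 0.98 ± 0.11 for CUST_53708 and 0.91 ± 0.17 for CUST_53709, with all 10 animals above 0 on both. Probes of 1 gene share a transcript and are no replicates of each other.

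The 17 tested ABCA1 probes of the complement strand gave another picture. Only CUST_104666 was called, at 0.27 ± 0.28 (adjusted p = 0.00832), and 16 were not, with means between -0.00 and 0.16. SDs over the 17 probes lay between 0.13 and 0.39. Averaged over the 17 probes, the ratio was 0.09 ± 0.23 (SD, n = 10), ranging from -0.22 to 0.40. CUST_104666 read 138 to 237 intensity units in HFD RNA with a median of 193, and 97.0 to 188 with a median of 178 in the pool, so the ranges overlap.

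The difference between the strands was itself tested over animals. For all tested ABCA1 probes, the mRNA-strand mean exceeded the complement-strand mean by 0.52 ± 0.27 log2 units (95% interval 0.32 to 0.71), in 10 of 10 animals (exact sign-flip permutation test, two-sided, p = 0.00195, the smallest 10 animals can give, 0.00223 after adjustment over 8 strand comparisons). Over the 5 mirrored pairs, which share 57, 57, 52, 27 and 23 of 60 bases, the mRNA-strand mean was 0.66 ± 0.09 and the complement-strand mean 0.14 ± 0.28. The mRNA-strand mean was higher in all 10 animals. Pair by pair, CUST_105284 stood at 0.98 against 0.27 for CUST_104666, CUST_105282 at 0.58 against 0.04 for CUST_104669, and CUST_105283 at 0.72 against 0.16 for CUST_104667. CUST_105281 stood at 0.46 against 0.15 for CUST_104670, and CUST_105280 at 0.54 against 0.09 for CUST_104671. The mRNA-strand probe was higher in 10 of 10 animals in 4 pairs and in 9 of 10 in the pair of CUST_105282 (exact p = 0.00586). Such gaps are not particular to ABCA1: of 1261 mirrored pairs tested on the array, from 893 gene names, 24% differed by 0.4 or more and the median absolute difference was 0.24.

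**Figure D2:**
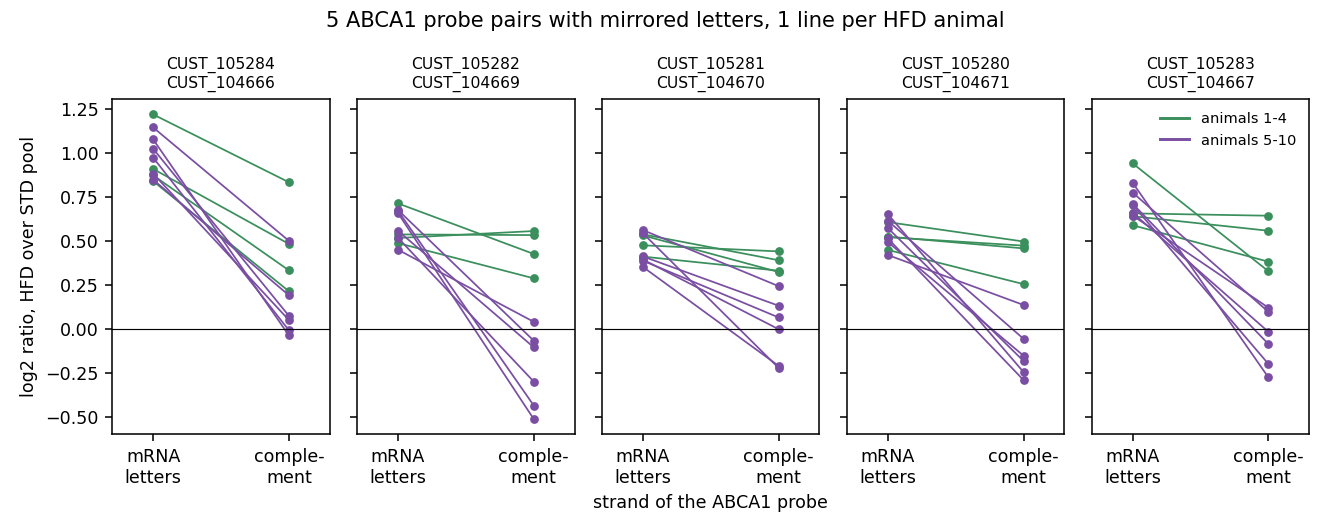
Log2 ratio of HFD over STD pool in each of 10 HFD animals for the 5 mirrored ABCA1 probe pairs, with the mRNA-letter probe on the left of each panel and the complement on the right, 1 line per animal. In the mean of the pairs the complement side lies between 0.30 and 0.50 in animals 1 to 4 and between -0.23 and 0.11 in animals 5 to 10, while the mRNA-letter side stays between 0.55 and 0.81.

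The complement-strand values of ABCA1 depended on the 6 arrays that stand apart. Their mean over the 17 probes was -0.62 to -0.29 on those 6 arrays and 0.09 to 0.64 on the other 14, with no overlap. The mRNA-strand mean was 0.59 to 0.76 on the 6 arrays and 0.37 to 0.80 on the other 14. By limma with animal as random block, 1 of the 17 complement-strand probes was called higher on all 20 arrays. Without the 6 arrays, the same kind of fit called all 17 higher, with ratios of 0.19 to 0.49. The share of all probes called higher in that fit is not given here, so its count has no background beside it. The strand difference without the 6 arrays was smaller, 0.29 ± 0.13 per animal with the mRNA strand higher in 10 of 10 animals (exact p = 0.00195). For the mirrored pairs it was 0.27 ± 0.15 with 9 of 10 (exact p = 0.00391). So the size of the gap, and whether the complement-strand probes were called, rested on these 6 arrays, whereas its direction did not. In animals 1 to 4 alone, whose arrays all belong to the 14, the gap was 0.24 ± 0.14 (SD, n = 4; exact p = 0.125, the smallest 4 animals can give).

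**Figure D3:**
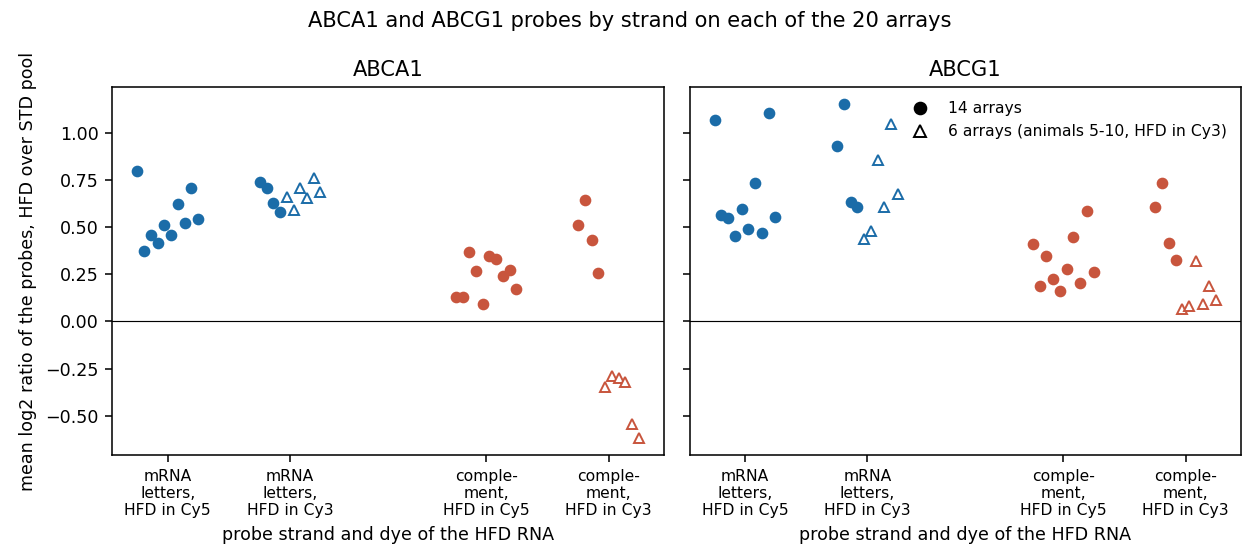
Mean log2 ratio of HFD over STD pool of the ABCA1 (left) and ABCG1 (right) probes on each of the 20 arrays, by probe strand and by the dye of the HFD RNA; open triangles are the 6 arrays with HFD in Cy3 of animals 5 to 10. For ABCA1 only the complement-strand probes on those 6 arrays lie below 0, at -0.62 to -0.29.

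ABCG1 was higher in HFD livers. All 11 of its probes were called, but CUST_82785 and CUST_97828 entered the test only through HFD RNA and are no support for the direction. Under a filter asking for signal in both RNAs on at least 18 arrays, 7 ABCG1 probes were called higher. The 4 probes placed on the mRNA strand averaged 0.49 in the lowest animal, 0.60 at the median and 1.08 in the highest. All animals lay above 0, and animals 1 and 9 were the highest of the 10. The mean was 0.70 ± 0.22 (SD, n = 10), 1.63-fold, and is a description, since it includes CUST_82785. CUST_82791, the brightest of the 4, was well above background on 20 arrays in both RNAs. It averaged 0.83 ± 0.24 (limma, adjusted p = 4.28e-07). It read 463 to 767 units in HFD RNA and 295 to 336 in the pool.

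ABCG1 CUST_82785 was well above background on 20 arrays in HFD RNA and on 5 in the pool, and its ratio of 0.55 ± 0.19 (SD, n = 10) includes an offset of 50 added before the logarithm, which understates ratios of dim probes. The authors' deposited log2 ratios put it at 1.53. The mean of the 4 probes likewise depended on the background handling, at 1.25 by processed signals of the scanner software and 1.10 in the authors' deposited table.

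The 7 ABCG1 probes of the complement strand were also all called higher, with means between 0.16 and 0.57. Averaged, they gave 0.30 ± 0.14 (SD, n = 10), with animals between 0.11 and 0.51. This mean too depended on the background handling, at 0.80 by processed signals and 0.63 in the authors' deposited table. The mRNA-strand mean exceeded it by 0.40 ± 0.13 (95% interval 0.30 to 0.49) in 10 of 10 animals, and by 0.34 ± 0.12 without the 6 arrays. Both means hold a probe that entered the test only through HFD RNA, CUST_82785 and CUST_97828, so this gap is a description. No mirrored pair of ABCG1 overlapped by enough bases for a comparison at the same site. The brightest ABCG1 probe of all, CUST_97831, belongs to the complement strand. It read 399.6 to 516 units in HFD RNA and 321 to 456 in the pool, which overlap. Its ratio ranged from -0.01 to 0.33 over animals with a median of 0.14, and averaged 0.16 ± 0.12, with 9 of 10 above 0 (limma, adjusted p = 0.00164). Without the 6 arrays it was 0.27 (adjusted p = 0.000307), and on the arrays with HFD in Cy3 alone it was 0.09 and not called (adjusted p = 0.238). A rule that lets the brightest probe stand for a gene therefore gave ABCG1 a log2 ratio of 0.16, where its brightest mRNA-strand probe gave 0.83.

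ABCG4 was higher by its brighter probe. That probe, CUST_51214, whose strand is not settled, gave 0.02 in the lowest animal, 0.22 at the median and 0.42 in the highest, all 10 above 0. Its mean was 0.24 ± 0.13 (SD, n = 10), 1.18-fold (limma, adjusted p = 1.2e-04). The intensities overlapped, with 1046 to 1952 units in HFD RNA and 877 to 1572 in the pool. The Walker B probe, CUST_69993, on the mRNA strand, was dim. It was well above background in HFD RNA on 15 arrays and in the pool on 2, with 80.4 to 135 units in HFD RNA and 66.8 to 86.4 in the pool. It entered the test only through HFD RNA, so its ratio is a description: 0.37 ± 0.15 here, 1.54 in the authors' deposited log2 ratios and 1.85 by processed signals. Its size rests on how background was treated.

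SCARB1, the HDL receptor, was lower by all 7 of its probes. The brightest, CUST_81134, gave -0.52 in the lowest animal, -0.30 at the median and -0.01 in the highest. All animals lay below 0, animal 4 only just. The mean was -0.30 ± 0.15 (SD, n = 10), 1.23-fold lower (limma, adjusted p = 6.24e-05). The probe read 2753 to 4251 units in HFD RNA with a median of 3820, against 3755 to 4951 with a median of 4543 in the pool, so the intensity ranges overlap although each HFD value lay below the pool on the same arrays. The other 6 probes had means between -0.35 and -0.21, with SDs between 0.16 and 0.21, and 3 of the 7 probes were below 0 in every animal. Without the 6 arrays, all 7 stayed lower, at -0.27 to -0.20. On the arrays with HFD in Cy3 alone, 4 of 7 were called.
SCARB1 CUST_81134: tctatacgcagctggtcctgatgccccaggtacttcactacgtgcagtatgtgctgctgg

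NR1H3 was not called by its brightest probe. CUST_67983 gave -0.25 in the lowest animal, -0.04 at the median and 0.08 in the highest, with 2 of 10 above 0. The mean was -0.06 ± 0.10 (SD, n = 10; 95% interval -0.13 to 0.01; limma, adjusted p = 0.134). With slide as a random block the same probe was called lower, at -0.06 (limma, adjusted p = 0.0222), and 3 of the 7 probes were. That fit took the 2 arrays of an animal, which lie on different slides, as independent. With animal as the random block on the same 20 arrays, CUST_67983 was not called (limma, adjusted p = 0.0787) and 1 of the 7 probes was called lower. CUST_67983 was -0.02 without the 6 arrays (adjusted p = 0.73). At 7143 to 9857 units in HFD RNA and 7328 to 9774 in the pool, its ranges nearly coincide. Of the 7 NR1H3 probes, CUST_67689 alone was called, at -0.14 ± 0.19 (adjusted p = 0.0448), and the other 6 lay between -0.07 and 0.02. That call was lost without the 6 arrays, where 0 of 7 were called, and without animal 3, 6, 7, 8, 9 or 10. The 5 probes on the mRNA strand averaged -0.05 ± 0.14, with animal 9 lowest at -0.40 and animal 10 next at -0.18, while the other 8 lay between -0.08 and 0.10. LXR alpha is itself an LXR target in some cells and species, and 70.2% of named genes had a larger absolute ratio than its brightest probe.

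**Figure D4:**
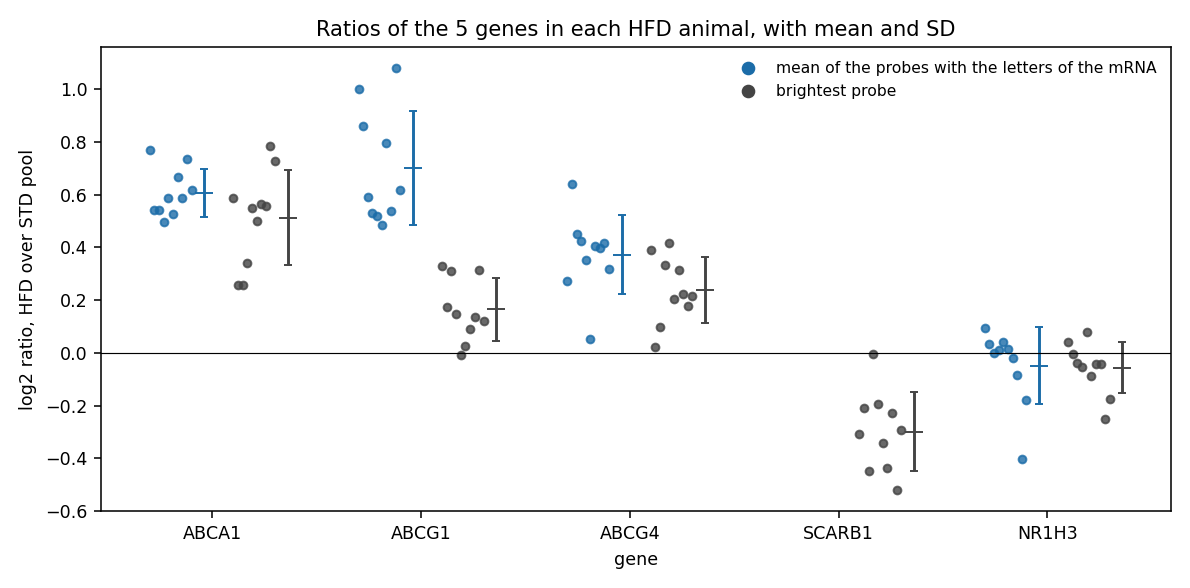
Log2 ratio of HFD over STD pool of each gene in the 10 HFD animals, by the mean of its probes with the mRNA's letters (blue) and by its brightest probe (grey), with mean and SD; SCARB1 has no probe of settled strand. ABCG1 averages 0.70 by the first measure and 0.16 by the second, while NR1H3 lies near 0 by both.

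By their brightest probes, 3 of the 5 genes were called higher (ABCA1, ABCG1, ABCG4), SCARB1 was lower and NR1H3 was not called. ABCG1 stands here, and in the tests between genes that follow, by CUST_97831 of the complement strand. Among the 13827 named genes tested, 60.3% were called, 31.4% of the 13827 as higher and 28.9% as lower. Whether the genes changed by unequal amounts was tested within animals for all 10 pairs. ABCA1 exceeded SCARB1 by 0.81 ± 0.28 (95% interval 0.62 to 1.01) and NR1H3 by 0.57 ± 0.25 (0.39 to 0.75), each in 10 of 10 animals (exact sign-flip permutation test, adjusted p = 0.00326). ABCG4 exceeded NR1H3 by 0.30 ± 0.13 and SCARB1 by 0.54 ± 0.16, and ABCG1 exceeded SCARB1 by 0.46 ± 0.23, each in 10 of 10 (adjusted exact p = 0.00326). ABCG1 exceeded NR1H3 by 0.22 ± 0.17 in 9 of 10 (adjusted exact p = 0.00434). NR1H3 exceeded SCARB1 by 0.24 ± 0.14 in 9 of 10 (adjusted exact p = 0.00434).

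The order of the 3 exporters depended on the probes and on the background handling. By brightest probes ABCA1 exceeded ABCG1 by 0.35 ± 0.22 in 9 of 10 animals (adjusted exact p = 0.00434) and ABCG4 by 0.27 ± 0.18 in 10 of 10 (adjusted exact p = 0.00326), and ABCG1 and ABCG4 differed by -0.08 (95% interval -0.22 to 0.07; adjusted exact p = 0.258). By the mean of the mRNA-strand probes, ABCA1 minus ABCG1 was -0.09 (95% interval -0.20 to 0.02). The ABCG1 mean includes CUST_82785, which entered the test only through HFD RNA, so this is a description. That mean was 0.70, and the single ABCG4 probe of that strand, CUST_69993, gave 0.37. That probe was below the background criterion on most arrays in the pool, and in the authors' deposited log2 ratios the values were 1.10 for ABCG1 and 1.54 for ABCG4, so the order of these 2 genes also turned with the background handling. All these ratios share the pool and the arrays.

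ABCA1 CUST_105279 differed between the dye orientations. It averaged 0.35 ± 0.15 with HFD in Cy5 and 0.67 ± 0.27 with HFD in Cy3, a difference of -0.32 ± 0.24, with the Cy5 array higher in 1 of 10 animals (exact p = 0.00586, 0.0293 after adjustment over the 5 genes). Of the 10 arrays with HFD in Cy3, 6 are those that stand apart, so over all animals the dye and that set cannot be told apart. In animals 1 to 4 the difference was -0.09 ± 0.16 (SD, n = 4; exact p = 0.375), and in animals 5 to 10 it was -0.48 ± 0.12 (SD, n = 6; exact p = 0.0312). CUST_105279 averaged 0.38 without the 6 arrays (adjusted p = 1.1e-06). For ABCG1, ABCG4, NR1H3 and SCARB1 the difference was 0.14, -0.09, -0.00 and 0.03, none past the threshold (adjusted exact p 0.391, 0.391, 0.977 and 0.728). Over all named genes the median absolute difference between orientations was 0.14, and 35.6% differed by 0.2 or more.

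Most LXR target genes were higher in HFD livers. Of 25 listed, 23 were measured, 16 of them higher, 3 lower and 4 not called, with a median of 0.41 against 0.01 over all named genes. Leaving out ABCA1, ABCG1, ABCG4 and NR1H3, 13 of 19 were higher and 3 lower, against background shares of 31.4% and 28.9%. Both counts of higher genes include SCD, at 0.08, which passed the filter on dim probes through HFD RNA only. It was well above background on 13 arrays in HFD RNA and on 6 in the pool, and is no support for the direction. SCD and SCD1 were counted as 2 gene names. Under the filter asking for signal in both RNAs, 15 of the listed genes were called higher. ABCG5 and ABCG8, which together export sterols into bile, averaged 2.92 ± 0.23 and 1.16 ± 0.19. SREBF1, the lipogenic transcription factor, averaged 1.27 ± 0.28. Each of these 3 was above 0 in 10 of 10 animals (limma, adjusted p between 3.44e-12 and 3e-08). Without the 6 arrays that stand apart, none of the 3 lower calls was made. The list was chosen with earlier results of these data known, so its counts are a description.

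The receptor's partners, coregulators and oxysterol enzymes moved in both directions, 6 of 21 measured higher, 7 lower and 8 not called, with a median of 0.00. The shares over all named genes tested were 31.4% higher and 28.9% lower. RXRA, a DNA-binding partner of LXR, averaged 0.47 ± 0.19 (adjusted p = 9.67e-06). The enzymes CYP39A1 and CYP46A1, a 24-hydroxycholesterol 7 alpha-hydroxylase and the cholesterol 24-hydroxylase, averaged -0.78 ± 0.36 and -0.20 ± 0.06. HSD3B7, which acts early in bile acid synthesis, averaged -0.46 ± 0.24. All 3 were below 0 in every animal.

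Of the HDL proteins and receptor partners, 5 of 19 measured were higher, 8 lower and 6 not called, with a median of -0.05. Beside this stand 31.4% higher and 28.9% lower over all named genes tested. APOE and APOA4, apolipoproteins that accept cellular cholesterol, averaged 0.69 ± 0.10 and 0.73 ± 0.26, above 0 in 10 of 10 animals. LCAT, which esterifies HDL cholesterol, averaged -0.53 ± 0.15, and LIPG, the endothelial lipase that trims HDL phospholipid, -0.56 ± 0.15, both below 0 in 10 of 10.

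Among genes of intracellular cholesterol transport and esterification, 7 of 20 measured were higher, 9 lower and 4 not called, with a median of -0.05. Named genes as a whole were 31.4% higher and 28.9% lower. STARD4, a cytosolic sterol carrier, averaged -1.06 ± 0.13, and NPC1, which exports cholesterol from lysosomes, -0.32 ± 0.09. CES1D, a carboxylesterase, averaged 2.24 ± 0.27, and GRAMD1C, of the family that moves sterol from the plasma membrane to the endoplasmic reticulum, 0.87 ± 0.20. All 4 ran the same way in every animal.

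Of the genes acting on ABCA1 protein or its transcription, 8 of 20 measured were higher, 7 lower and 5 not called, with a median of -0.04. RAB7A, a GTPase of late endosomes, averaged 0.50 ± 0.12. CSNK2A1, a casein kinase subunit, averaged -0.44 ± 0.25 and HNF4A, a hepatocyte transcription factor, -0.39 ± 0.19. These 4 lists had calls in both directions, as did the named genes as a whole, of which 31.4% were higher and 28.9% lower.

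**Figure D5:**
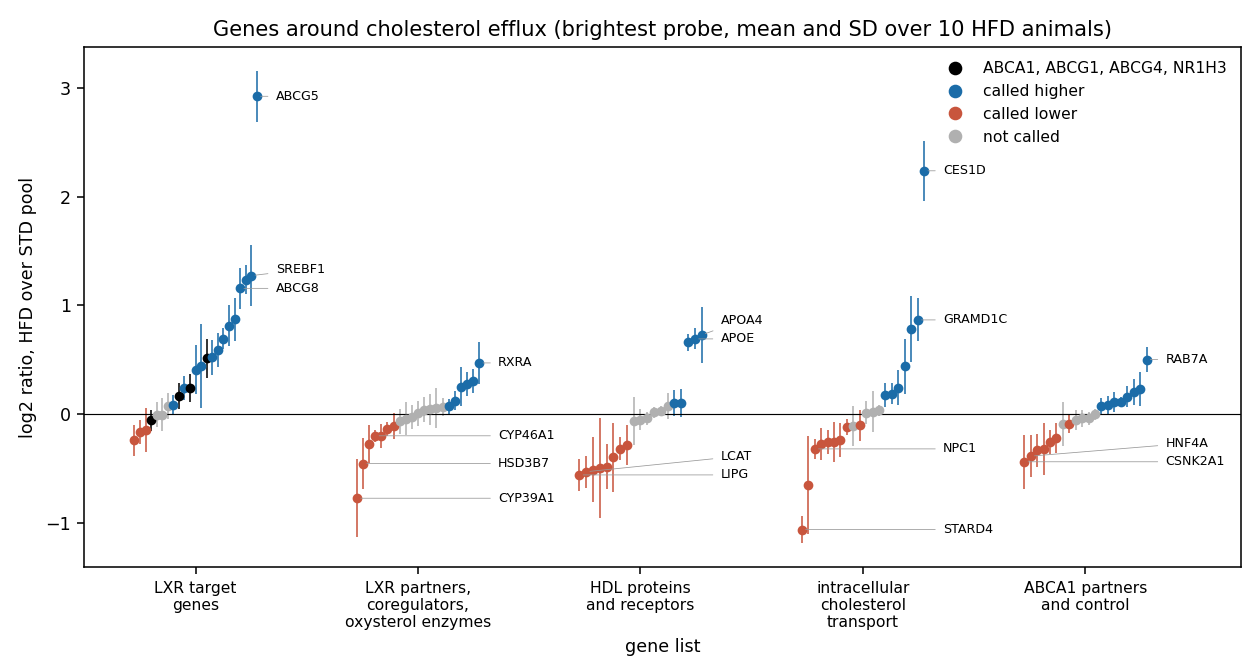
Log2 ratio of HFD over STD pool (mean and SD over 10 HFD animals, brightest probe) for the measured genes of 5 lists around cholesterol efflux, sorted within each list, with the described genes named. LXR target genes hold 16 higher and 3 lower calls and have a median of 0.41, while the medians of the other 4 lists lie between -0.05 and 0.00. Among the 16, SCD passed the filter on dim probes through HFD RNA only.

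Cell type markers moved as well, and in whole liver fewer cells of a type and less RNA per cell cannot be told apart. Summed over 14 measured macrophage and Kupffer cell markers, the intensity was 31073 to 52985 in HFD RNA and 23152 to 27739 in the pool. Of the 14, 8 were higher and 3 lower. CD68 averaged 0.84 ± 0.34, whereas CD163 averaged -1.25 ± 0.32. The 12 hepatocyte markers summed to 753260 to 885910 in HFD RNA and 818590 to 937120 in the pool, with 1 higher and 9 lower. Over all named genes tested, 31.4% were called higher and 28.9% lower. Sums over 10 endothelial markers (5753 to 6844 in HFD RNA, 5932 to 6827 in the pool) and over 5 cholangiocyte markers (1642 to 1857 and 1650 to 1843) overlapped. The 10 stellate cell and fibroblast markers summed to 12703 to 16999 in HFD RNA and 11356 to 12585 in the pool. No marker was below background on all arrays. The part of these shifts in the ratios of ABCA1, ABCG1 and SCARB1 was not tested.

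For each called gene, the 3 named genes with the most similar ratios over the 10 animals were found by the root mean square difference. For ABCA1 (CUST_105279) these were ITGA1, 0610010F05RIK and ASB13, at 0.07 to 0.08 log2 units. For ABCG1, by its complement-strand probe, they were CHD1L, MAX and CCDC90A, at 0.07. For ABCG4 they included PI4K2A and ACTR1B, at 0.04 and 0.05, and for SCARB1 ORAI1, ZFP354A and DPF2, at 0.10 to 0.11.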

How the data were processed

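The deposited intensity values (mean spot signal and median local background of each colour) were written by Agilent Feature Extraction 10.7.3.1, per the file headers. A table of log2 ratios by probe and animal was deposited by the authors, made with limma per the submitters' processing notes, and its further steps are not described in the sources. The dye of each RNA, and so the direction of every ratio, rests on the array names, since each sample's labels list both orientations.

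With limma 3.58.1 in R 4.3.3, background was corrected with normexp (offset 50) and each array was normalised by loess, with control and outlier spots at weight 0. Spots of 1 probe were averaged, the 2 arrays of an animal were turned to HFD over STD pool and averaged, and the mean over 10 animals was tested against 0 with lmFit and eBayes (two-sided, Benjamini-Hochberg, 0.05). This tests HFD animals against 1 pool and leaves out the spread of the control animals. Probes needed a value on all 20 arrays and a signal well above background on at least 10 of 20 in HFD RNA or in the pool, and a gene was represented by its brightest such probe. Intensities are per-animal means of normalised signals. Agreement was checked on simulated ratios for the 13827 named genes, where a change of 0.25 log2 units was recovered in 82.1% of genes. Differences between genes, strands and dyes were tested by exact sign-flip permutation over 10 animals (1024 flips). The number of animals limits the precision.

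Named genes were all 5 genes and, per list, the 2 with the smallest p in the direction of most calls and the 2 with the largest absolute ratio among the remaining calls; a few genes this rule picks are not reported here. The genes and lists were chosen with earlier results of these data known. The strand comparisons, and genes by their mRNA-strand probes, were added after the probe sequences were read. CD68 and CD163 were named after their values were seen. All 5 symbols matched RefSeq genes of the hamster by name, and no coordinates were used.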

Additional observations from a re-analysis of the deposited data

Results flagged for a closer look

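Among 53 sets of 10 animals, 1 per tested probe, 2 held an animal far from the rest by Dixon's criterion, which flags about 1 set in 20 by chance. On ABCA1 CUST_105278, animal 1 had a log2 ratio of 0.7672, and its distance to the nearest other animal was 0.593 of the whole range. On NR1H3 CUST_67688, animal 9 had -0.4692, at 0.521 of the range. Both probes carry the letters of the mRNA.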

How the results depend on the processing

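ABCA1 stayed called higher and SCARB1 called lower under all 29 alternatives, at 0.17 to 0.67 and -0.34 to -0.24. Most alternatives used the brightest probe of a gene. Others used the mRNA-strand probes, or the mean or median of all probes, which for ABCA1 mixes both strands. All 7 ABCA1 mRNA-strand probes were called higher under all 25 alternatives fitted to probes, and the strand differences of ABCA1 and ABCG1 kept their sign under all 18. HFD animals could not be paired with control animals, because there is 1 group of animals, each read against the same pool. Differences between genes, strands and dyes were taken within animals.

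The main counts were 1 higher and 0 lower for the complement-strand ABCA1 probes, 1 lower and 0 higher for NR1H3, 11 higher for ABCG1, 7 lower for SCARB1, 3 lower LXR targets, 7 lower LXR partners, 5 higher HDL genes and 8 higher ABCA1 partners. With HFD in Cy5 only, they were 15 complement-strand ABCA1 probes higher, 4 NR1H3 probes lower, 4 LXR partners lower and 3 HDL genes higher. With HFD in Cy3 only, they were 0 complement-strand ABCA1 probes higher, 1 NR1H3 probe higher and 0 lower, 4 SCARB1 probes lower and 5 ABCA1 partners higher, ABCG1 was 0.0936 (adjusted p = 0.238) and ABCG1 minus NR1H3 0.1502. Without the 6 arrays, 17 complement-strand ABCA1 probes were higher, with 0 NR1H3 probes lower, 0 LXR targets lower and 3 HDL genes higher. In animals 5 to 10, 0 complement-strand ABCA1 probes were higher and 4 lower, 2 NR1H3 probes were lower, and ABCG1 minus NR1H3 was 0.1995.

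In animals 1 to 4, 16 complement-strand ABCA1 probes were higher, 0 NR1H3 probes lower, 0 LXR targets lower, 4 LXR partners lower, 3 HDL genes higher and 3 ABCA1 partners higher, and ABCG4 was 0.2109 (adjusted p = 0.0503). There 4 animals cannot pass the exact test, and ABCA1 minus ABCG1, ABCG4, NR1H3 and SCARB1 was 0.1198, 0.1501, 0.3741 and 0.6047, ABCG1 minus NR1H3 and SCARB1 0.2544 and 0.4849, ABCG4 minus NR1H3 and SCARB1 0.224 and 0.4546, and NR1H3 minus SCARB1 0.2305. By the same small n, the strand differences were 0.2439 and 0.212 (ABCA1, all probes and mirrored pairs) and 0.3394 (ABCG1).

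With slide as random block, NR1H3 was -0.05877 (adjusted p = 0.0222), with 5 complement-strand ABCA1 probes higher and 3 NR1H3 probes lower. In scan session 1, 0 complement-strand ABCA1 probes were higher and 0 NR1H3 probes lower. In session 3, 0 NR1H3 probes were lower, 4 LXR partners lower, 3 HDL genes higher and 4 ABCA1 partners higher. With software-processed signals, 0 complement-strand ABCA1 probes were higher and 0 NR1H3 probes lower, and with the authors' ratios or offset 10, 0 NR1H3 probes were lower. With the strict filter 7 ABCG1 probes were called higher. Leaving out 1 animal gave 1 to 5 complement-strand ABCA1 probes higher (5 without animal 10), 0 to 1 NR1H3 probes lower and 3 to 6 HDL genes higher (3 without animal 1, 5 or 10).

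By the mean or median of all probes, ABCA1 minus ABCG1 turned to -0.1533 or -0.2265, ABCA1 minus ABCG4 to -0.01195 or -0.1325, ABCG1 minus ABCG4 to 0.1414 by the mean, and 3 HDL genes were higher by either. By the brightest mRNA-strand probe or their mean, ABCA1 minus ABCG1 turned to -0.3139 or -0.0947 and ABCG1 minus ABCG4 to 0.4537 or 0.3287 (resting on the dim ABCG4 probe CUST_69993), and ABCA1 minus ABCG4 was 0.1399 by the brightest. These use other probes of the same genes, and the cause of the other changes was not tested.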
